A study of Mus musculus with 6 samples.

Results

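Class IIa histone deacetylases and the MEF2 factors they repress were followed in mouse myoblasts labelled Hdac11 knockout or wild type, 1 day into differentiation. The group holds the 4 class IIa genes Hdac4, Hdac5, Hdac7 and Hdac9 and the 3 MEF2 genes Mef2a, Mef2c and Mef2d, found by gene symbol among the 21778 genes of the deposited table. Class IIa deacetylases have little deacetylase activity of their own on histones; they bind MEF2 factors through their N-terminal part and bring corepressor complexes with HDAC3 to MEF2 target genes. Kinases of the CaMK, PKD, SIK and MARK families phosphorylate them, 14-3-3 proteins then hold them in the cytoplasm, and MEF2 is free to activate muscle genes together with MYOD and myogenin. In differentiating myoblasts this release is part of the switch from dividing precursors to contractile muscle cells.

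The 6 cultures were primary myoblasts of C57BL/6 mice, sorted from hindlimb muscle by alpha 7-integrin and CD34, and taken once they had spent 24 h in low-serum medium (2% horse serum) that induces differentiation. The 3 knockout (KO) libraries were labelled Hdac11-/-: exon 3 of Hdac11, flanked by loxP sites, had been removed by a Cre recombinase driven by the SOX2 promoter, which acts in the early embryo, so the deletion dates from development and not from the culture. The 3 wild-type (WT) libraries came from littermates. The series calls the libraries biological replicates; the labels do not give age or say whether a culture pooled animals.

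Libraries held 16742457 to 22835394 counts. Hdac11 itself, counted over the whole gene, stood at 33.5 CPM (counts relative to the TMM-scaled library total) in KO replicate 1 and 30.2 CPM in KO replicate 3. The library labelled KO replicate 2 had 76.4 CPM, and the WT libraries lay between 63.0 and 79.5 CPM. KO replicate 2 thus goes against its label at the level of the gene, although reads summed over a gene leave the state of the exon unknown, and results are given with and without it. Of 6 myoblast markers, Myod1, Myf5 and Cdh15 overlapped between the groups, with Myod1 at 892 to 1329 CPM over the 6 libraries. Itga7, the integrin used in the sort, was at 1381, 1136 and 1295 CPM in KO and 1480, 1912 and 1987 CPM in WT, in the order of replicates 1, 2 and 3 that is used throughout, and Des was likewise lower in all KO libraries. Pax7, the factor of satellite cells, was higher in all KO libraries, at 82.3, 108.8 and 127 CPM against 54.6, 69.7 and 77.0 CPM (edgeR adjusted p = 0.204, unadjusted under 0.05). Itga7 and Des also had an unadjusted edgeR p under 0.05 (edgeR adjusted p = 0.258 and 0.178). For Des the DESeq2 adjusted p was 0.0119. In 23.4% of all tested genes the groups did not overlap. By sex-linked genes 4 libraries looked female; the male-like ones were replicate 3 of KO and replicate 1 of WT. KO and WT also differed in markers of stage: Mki67, a protein of dividing cells, was at 330, 239 and 356 CPM in KO and 158, 85.9 and 125 CPM in WT. Embryonic myosin heavy chain, Myh3, was at 11127, 4545 and 3661 CPM in KO and 8567, 30671 and 24728 CPM in WT. RNA from bulk cultures does not separate fewer cells of a kind from less RNA per cell, and this holds for every gene below.

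Of the 7 genes, 3 class IIa and 3 MEF2 genes had a lower mean in KO, and Hdac7 had a higher one. All 7 passed the filter on low counts. edgeR's quasi-likelihood test with Benjamini-Hochberg adjustment over all 14835 tested genes called 0 of the 7 and 0 of all genes (0% called). Hdac7 was higher and 3 genes (Hdac9, Mef2a and Mef2d) were lower at an unadjusted edgeR p under 0.05, 4 of 7 against 17.7% of all tested genes, with a background of 9.88% higher and 7.83% lower. Leaving out KO replicate 2, 1 gene was higher and 2 lower by that rule, beside 9.52% and 6.02% of all genes (15.5% in all). DESeq2, the tool named in the submitters' processing notes, called Hdac7 higher and Hdac9 lower at an adjusted p under 0.05, against 6.89% of genes called, 4.49% higher and 2.4% lower. Leaving out KO replicate 2 it called 0 higher and 1 lower (Mef2d), beside 5.42% of genes called, 4.2% higher and 1.22% lower. By the same threshold the authors' deposited table called Hdac7 higher and Hdac9 lower, beside 6.33% of genes called, 4.2% higher and 2.13% lower. In 4 of the 7 genes the KO and WT libraries did not overlap, as in 23.4% of all tested genes. The DESeq2 calls of Hdac7 and Hdac9 depended on single libraries: both were lost on leaving out replicate 2 or 3 of KO, or replicate 2 or 3 of WT, where the adjusted p was 0.0608 to 0.254 for Hdac7 and 0.109 to 0.169 for Hdac9. The median log2 fold change was -0.55 for the 7 genes and -0.01 for all tested genes.

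Stretches around annotated starts of 4 of these genes are shown for their matches to motifs of factors in this circuit. Mef2a and Hdac5 hold a match to the MEF2 consensus, and Hdac7 and Hdac9 the E-box CAGCTG, a form preferred by MYOD. Sequences are RefSeq's on GRCm38.p6, 5′ to 3′ on the strand of the gene, from 250 bases before to 50 bases after a start, and matches are in capitals. Mef2a lies at an internal start on chromosome 7 (chr7:67372809-67373108, minus strand), Hdac5 at its outermost start on chromosome 11 (chr11:102230123-102230422, minus strand), Hdac9 at an internal start on chromosome 12 (chr12:34528840-34529139, minus strand) and Hdac7 at an internal start on chromosome 15 (chr15:97814814-97815113, minus strand).
Mef2a: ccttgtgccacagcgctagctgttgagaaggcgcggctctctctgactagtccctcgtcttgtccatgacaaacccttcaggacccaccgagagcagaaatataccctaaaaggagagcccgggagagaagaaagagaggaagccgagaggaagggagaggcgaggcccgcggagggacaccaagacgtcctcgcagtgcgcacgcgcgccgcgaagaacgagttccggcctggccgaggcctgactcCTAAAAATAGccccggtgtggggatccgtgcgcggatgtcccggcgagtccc
Hdac5: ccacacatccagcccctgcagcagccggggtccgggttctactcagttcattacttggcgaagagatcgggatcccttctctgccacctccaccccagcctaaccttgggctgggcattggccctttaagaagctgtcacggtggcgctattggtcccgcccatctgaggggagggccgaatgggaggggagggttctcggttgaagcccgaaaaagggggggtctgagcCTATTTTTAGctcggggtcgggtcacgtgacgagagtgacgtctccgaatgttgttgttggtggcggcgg
Hdac9: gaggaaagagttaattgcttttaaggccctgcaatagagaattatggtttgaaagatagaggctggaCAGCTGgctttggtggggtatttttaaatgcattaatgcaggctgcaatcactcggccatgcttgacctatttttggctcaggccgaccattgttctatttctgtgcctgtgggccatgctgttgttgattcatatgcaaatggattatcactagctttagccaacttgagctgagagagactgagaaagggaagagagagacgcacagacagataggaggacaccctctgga
Hdac7: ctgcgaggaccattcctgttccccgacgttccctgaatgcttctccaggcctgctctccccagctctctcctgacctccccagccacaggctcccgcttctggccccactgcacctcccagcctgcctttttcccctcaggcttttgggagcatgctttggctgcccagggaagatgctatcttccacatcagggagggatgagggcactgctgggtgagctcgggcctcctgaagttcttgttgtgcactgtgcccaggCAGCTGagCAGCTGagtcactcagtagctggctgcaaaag

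The Mef2a site, CTAAAAATAG, lies from base -2 to base 8 around the annotated start, and the Hdac5 site, CTATTTTTAG, from base -20 to base -11. Each is the other read on the opposite strand. All 7 genes matched the promoter table, with 13 windows between them; 2 windows, those of Mef2a and Hdac5, held the MEF2 consensus, searched on both strands, against 3.19% of all 32851 windows. CAGCTG, which reads the same on both strands, was in 3 of the 13 windows, 2 of them of Hdac9 and 1 of Hdac7. It was in 16.3% of all windows, so a window with it is not unusual. None of the 13 windows held both motifs. A match of letters is not evidence that a factor binds there, and binding was not measured.

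Hdac7 was the class IIa gene with more transcript in KO. HDAC7 is a repressor best known from thymocytes and endothelium, and in myoblasts its export from the nucleus accompanies differentiation. It stood at 38.8, 48.3 and 52.1 CPM in KO and 29.9, 30.6 and 23.2 CPM in WT. Every KO library lay above every WT library, as did 13.2% of all tested genes. The means were 46.4 ± 6.85 CPM in KO and 27.9 ± 4.08 CPM in WT (SD, n = 3), a 1.66-fold ratio of the means, and the edgeR log2 fold change was 0.73 (SE 0.18, edgeR adjusted p = 0.158). The exact permutation p, two-sided, was 0.1, the smallest that 3 against 3 can reach. With DESeq2 the adjusted p was 0.0275, while the authors' deposited table lists 0.0369 as adjusted p. Without KO replicate 2 the edgeR log2 fold change was 0.71 (edgeR adjusted p = 0.248) and the DESeq2 adjusted p was 0.117.

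Since HDAC7 and MEF2C are also abundant in endothelial and blood cells, the markers of those cells were read beside them. The 4 endothelial markers summed to 1.48 to 4.01 CPM in KO and 1.59 to 2.86 CPM in WT, with Kdr, the endothelial VEGF receptor, at most 0.116 CPM and Cdh5 at most 0.529 CPM in any library. These sums overlapped between the groups. Pecam1 was at 1.49, 0.984 and 2.88 CPM in KO and 1.21, 0.524 and 0.688 CPM in WT. Its edgeR log2 fold change was 1.12 (edgeR adjusted p = 0.315), and the groups overlapped through KO replicate 2. Without that library the Pecam1 log2 fold change was 1.42 (edgeR adjusted p = 0.305, unadjusted p = 0.0372), and that of Tek was -0.26 (edgeR adjusted p = 0.868). The 2 haematopoietic markers with a row, Cd68 and Cd14, summed to 2.89 to 6.22 CPM in KO and 1.80 to 3.28 CPM in WT, also overlapping; the other 3 of that list were not analysed here. Cd14 alone did not overlap, at 0.747, 1.61 and 1.36 CPM in KO and 0.388, 0.291 and 0.741 CPM in WT, with an edgeR log2 fold change of 1.38 (edgeR adjusted p = 0.234, unadjusted under 0.05), in the same direction as Hdac7. Their part in the Hdac7 and Mef2c values was not tested.

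Hdac9 differed in the other direction. HDAC9, whose short form MITR lacks the deacetylase domain, represses MEF2 in muscle and is itself a gene that MEF2 activates. Hdac9 was at 15.4, 9.35 and 5.48 CPM in KO and 17.4, 29.2 and 29.9 CPM in WT. All KO values were below all WT values, as for 10.2% of all tested genes, but KO replicate 1 and WT replicate 1 were close. The means were 10.1 ± 4.99 CPM in KO and 25.5 ± 6.99 CPM in WT (SD, n = 3), 2.53-fold lower in KO, with an edgeR log2 fold change of -1.34 (SE 0.39, edgeR adjusted p = 0.193) and an exact two-sided permutation p of 0.1. DESeq2 called it lower (adjusted p = 0.0239), as did the authors' deposited table, with an adjusted p of 0.0226. With KO replicate 2 left out the edgeR log2 fold change was -1.28 and the DESeq2 adjusted p 0.109. Counts per gene do not separate MITR from full-length Hdac9. The pseudogene Gm18025 lies inside Hdac9 and took 231 to 570 counts per library, so reads of the locus may be divided between the rows.

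The 2 genes together gave the steepest contrast within the class. The ratio of Hdac7 to Hdac9 CPM was 2.52, 5.17 and 9.51 in KO and 1.72, 1.05 and 0.778 in WT. No KO library reached down to the WT range. As a pair chosen for their values, these ratios are a description without a test.

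Hdac4 and Hdac5 differed less between the groups than among the WT libraries. HDAC4 couples neural activity to gene expression in muscle and represses MEF2 in myoblasts, and HDAC5 is its close relative, exported by CaMK signals at the onset of differentiation. Hdac4 was at 22.5, 27.9 and 19.1 CPM in KO and 24.6, 40.0 and 23.1 CPM in WT. WT replicate 2 stood above the other 5 libraries, and the rest overlapped. The edgeR log2 fold change of Hdac4 was -0.33 (SE 0.26, edgeR adjusted p = 0.524, exact permutation p = 0.4), and -0.04 without WT replicate 2. Hdac5 was at 102, 108 and 83.9 CPM in KO and 102, 171 and 125 CPM in WT. Again WT replicate 2 was highest, while WT replicate 1 was level with KO replicate 1. Its edgeR log2 fold change was -0.44 (SE 0.22, edgeR adjusted p = 0.332, exact permutation p = 0.2), and -0.21 without WT replicate 2. With KO replicate 2 left out the edgeR log2 fold changes of Hdac4 and Hdac5 were -0.49 and -0.51.

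**Figure D1:**
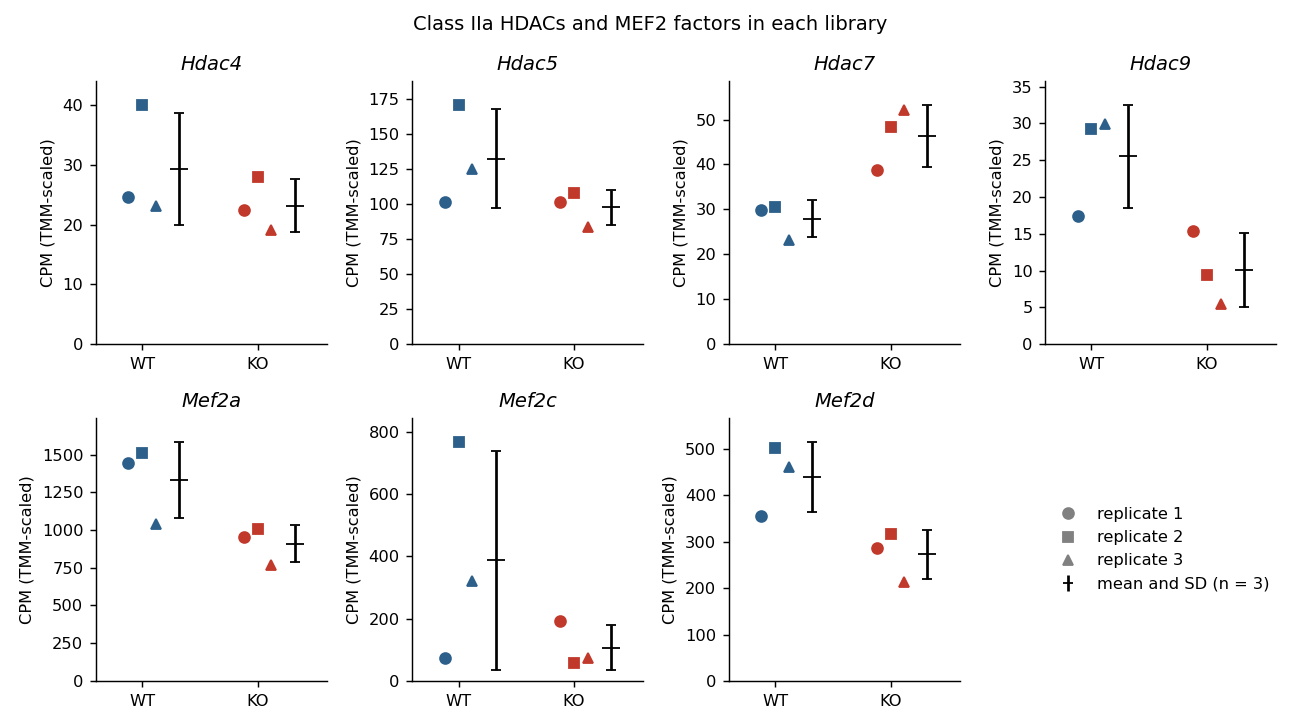
CPM of the 7 genes in each library, on linear axes from 0, with WT in blue, KO in red, symbols for the replicate number and black bars for the mean and SD of 3 libraries. Hdac7 is above the WT range in all 3 KO libraries, Hdac9, Mef2a and Mef2d are below it, and Hdac4, Hdac5 and Mef2c overlap.

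Mef2a was the MEF2 factor with the highest level. MEF2A is present in myoblasts and muscle alike and is needed for myoblast differentiation in culture. It was at 955, 1005 and 769 CPM in KO and 1442, 1512 and 1041 CPM in WT. The groups did not overlap, although KO replicate 2 and WT replicate 3 were close, and scaled by library totals only these 2 libraries crossed, at 1109 and 1001 CPM. Means were 909.7 ± 124 CPM in KO and 1332 ± 254 CPM in WT (SD, n = 3), with an edgeR log2 fold change of -0.55 (SE 0.22, edgeR adjusted p = 0.253, DESeq2 adjusted p = 0.111, exact permutation p = 0.1). Its edgeR log2 fold change was -0.62 with KO replicate 2 left out, where the unadjusted edgeR p was 0.0545. With a library left out, that p was under 0.05 only without WT replicate 3, at 0.0158, and otherwise at most 0.127.

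Mef2d, whose muscle splice form escapes repression and drives late muscle genes, was at 287, 317 and 213 CPM in KO and 356, 503 and 462 CPM in WT. The 3 KO values were all below the WT values. The means were 272.5 ± 53.7 CPM and 440.3 ± 75.5 CPM (SD, n = 3), and the edgeR log2 fold change was -0.69 (SE 0.21, edgeR adjusted p = 0.204, exact permutation p = 0.1). The DESeq2 adjusted p was 0.0504 with all libraries and 0.0448 without KO replicate 2, where the edgeR log2 fold change was -0.81. That DESeq2 value was 0.0166 without WT replicate 1. It was 0.0957 or 0.301 without KO replicate 1 or 3, and 0.275 or 0.161 without WT replicate 2 or 3. Mef2d thus passed the DESeq2 threshold only without KO replicate 2 or WT replicate 1. Its adjusted p was 0.0646 in the authors' deposited table. Splice forms were not separated in these counts.

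Mef2c, the factor that switches on late in myoblast differentiation and sustains sarcomere genes, was the most variable of the 7. It was at 190.8, 57.8 and 72.4 CPM in KO and 74.4, 768 and 321 CPM in WT, a 13.3-fold span over the 6 libraries, while Hdac9 spanned 5.45-fold and the other 5 genes 1.97-fold to 2.36-fold. WT replicate 1 lay within the KO range, and KO replicate 1 was above it. The means were 107 ± 73.0 CPM in KO and 388 ± 351 CPM in WT (SD, n = 3). The edgeR log2 fold change was -1.86 (SE 0.80, edgeR adjusted p = 0.286, DESeq2 adjusted p = 0.233, exact permutation p = 0.2). It was -0.89 without WT replicate 2, -1.55 without KO replicate 2 and -2.57 without KO replicate 1. Without WT replicate 1, DESeq2 called it lower (adjusted p = 0.00145), and edgeR gave an adjusted p of 0.129.

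**Figure D2:**
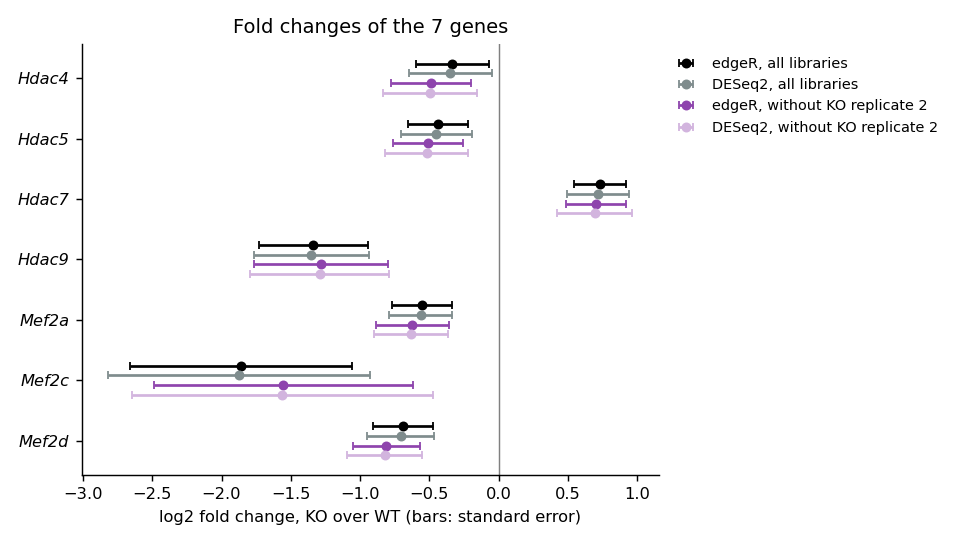
Log2 fold change of KO over WT for the 7 genes with its standard error, from edgeR and DESeq2, with all 6 libraries and without the library labelled KO replicate 2. Hdac7 is the gene to the right of 0 in all 4 fits, and Mef2c has the widest bars.

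Levels of different genes were compared per length, as CPM per kb of merged exons in GENCODE vM1. Mef2a stood at 143.7 ± 19.6 CPM per kb in KO and 210.4 ± 40.1 in WT, Mef2d at 45.5 ± 8.97 and 73.6 ± 12.6, and Mef2c at 14.5 ± 9.87 and 52.5 ± 47.5 (SD, n = 3). Mef2a was above Mef2d in all 6 libraries, whereas Mef2c was above Mef2d in WT replicate 2 alone. Among the deacetylases Hdac5 led, at 11.1 ± 1.42 CPM per kb in KO and 15.1 ± 4.00 in WT, and Hdac9 was lowest in every library, at 1.05 ± 0.52 and 2.65 ± 0.73 (SD, n = 3). Hdac7 and Hdac4 came between them, with Hdac7 above Hdac4 in 5 of the 6 libraries. In KO replicate 3 Hdac7, at 9.42 CPM per kb, was level with Hdac5, at 9.56.

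The make-up of the deacetylase class differed between the groups by these per-length levels. Hdac7 made up 29.7%, 33.2% and 41.9% of the class IIa level in KO and 23.9%, 16.2% and 16.8% in WT. The Hdac5 share was 48.9%, 46.8% and 42.5% in KO and 51.3%, 56.9% and 56.7% in WT. Neither share overlapped between the groups, while the class sum did, at 22.5 to 26.3 CPM per kb in KO and 22.6 to 34.2 in WT. The Hdac9 share did not overlap either, at 6.77%, 3.70% and 2.53% in KO and 8.02%, 8.90% and 12.4% in WT. That of Hdac4 overlapped. As parts of the same sum the shares are not independent: a higher Hdac7 share lowers the rest. The summed MEF2 level was 166.9 to 224.6 CPM per kb in KO and 285.1 to 426.7 in WT. The MEF2 sum was thus 9.50, 8.34 and 7.42 times the class IIa sum in KO and 13.2, 12.5 and 11.4 times in WT. These RNA ratios were formed after the values were seen and carry no test; they say nothing of protein or of where in the cell the deacetylases lie.

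Across the libraries the 7 genes followed different courses. In log2(CPM + 0.5) centred on each gene's mean, Hdac4 and Hdac5 were the closest pair of members, with a root mean square difference of 0.15. Mef2d was closest to Hdac5, at 0.19, and Mef2a to Hdac4, at 0.23. Hdac9 and Hdac7 had no close partner, with their nearest members at 0.47 and 0.59, and Mef2c had its nearest, Hdac9, at 0.84. The libraries that were low in Myh3 and in Ckm, muscle creatine kinase, KO replicates 2 and 3, were also the lowest in Hdac9. WT replicates 2 and 3, the highest in Myh3, were the highest in Hdac9, Mef2c and Mef2d. KO replicate 1 was above WT replicate 1 in Myh3, and likewise in Mef2c. The part of the stage of the cultures in the differences between KO and WT was not tested.

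**Figure D3:**
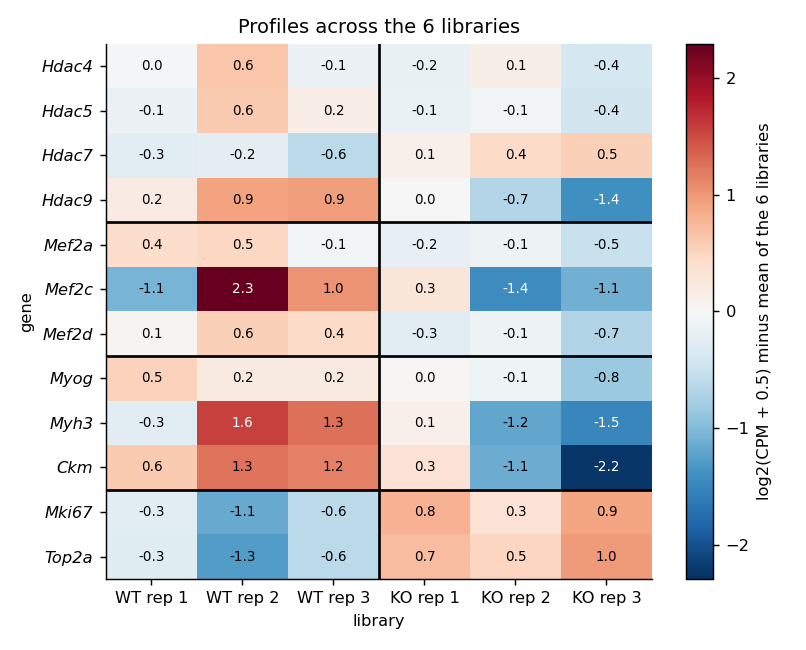
Log2(CPM + 0.5) minus the mean of the 6 libraries, for the class IIa genes, the MEF2 genes, 3 differentiation markers and 2 markers of dividing cells, in rows divided by black lines. Hdac9 and Mef2c are high where Myh3 is high, in WT replicates 2 and 3, and Hdac7 is high in the 3 KO libraries.

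Among 10804 other genes with a mean of at least 5 CPM, the closest profiles were named by the same measure over the 6 libraries. Nearest to Hdac9 were Filip1, at a root mean square difference of 0.11, Fn3k and Dlg2; nearest to Mef2d was Map4, which encodes a microtubule-associated protein, at 0.05. Iqsec1 and Lrp4, the agrin receptor of the neuromuscular synapse, were nearest to Mef2a at 0.05 and 0.06. Ubr4 and Acp6 were nearest to Hdac5, and Myo9a to Hdac4, all at 0.06. For Mef2c the closest genes, Rai2 and Adcy8, an adenylyl cyclase, were farther off at 0.22. The pseudogene Gm28659 and Lrfn4 were nearest to Hdac7, at 0.07 and 0.11. With 6 libraries and this many candidates some close profiles are found for any gene.

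The kinases that phosphorylate class IIa deacetylases held about the share of low p-values found over all genes. Of 17 tested, 0 passed edgeR's adjusted threshold; at an unadjusted p under 0.05, 2 were higher (Camk1g and Camk2g) and 1 lower (Camk2a), against 9.88% and 7.83% of all tested genes, and the median log2 fold change was 0.01. Camk1g, a calcium/calmodulin-dependent kinase, was at 25.0, 11.8 and 20.2 CPM in KO and 7.58, 3.09 and 4.02 CPM in WT, with all KO libraries above WT. Its edgeR log2 fold change was 1.95 (SE 0.42, edgeR adjusted p = 0.138), and DESeq2 called it higher (adjusted p = 0.000754 with all libraries and 0.000165 without KO replicate 2, and under the threshold with any other library left out). Camk2a was at 59.6, 31.2 and 15.5 CPM in KO and 57.0, 92.9 and 80.7 CPM in WT, overlapping through replicate 1. Prkd3, a protein kinase D, and Sik1, a salt-inducible kinase that is also a MEF2 target, had edgeR log2 fold changes of 0.40 and -0.40 (edgeR adjusted p = 0.301 and 0.327). The kinases at an unadjusted p under 0.05 numbered 1 higher and 0 lower with KO replicate 2 or WT replicate 2 left out. They numbered 0 lower with KO replicate 3 or WT replicate 3 left out. Over all genes 9.52% were higher and 6.02% lower without KO replicate 2, and 7.08% and 3.47% without WT replicate 2. Without KO replicate 3 or WT replicate 3, 2.84% or 6.65% of all genes were lower.

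Of the 8 genes for 14-3-3 proteins and nuclear export, 3 were higher in KO at an unadjusted p under 0.05 and 0 lower, against 9.88% and 7.83% of all tested genes, with 0 past the adjusted threshold and a median log2 fold change of 0.03. Xpo1, the export receptor that carries these deacetylases out of the nucleus among many other cargoes, was at 281, 242 and 337 CPM in KO and 178, 114 and 180 CPM in WT. No libraries overlapped, and its edgeR log2 fold change was 0.87 (SE 0.23, edgeR adjusted p = 0.166), with a DESeq2 adjusted p of 0.0209. Ywhah and Ywhaq, the eta and theta 14-3-3 isoforms, had edgeR log2 fold changes of 0.73 and 0.59 (edgeR adjusted p = 0.204 and 0.265), and Ywhag and Sfn -0.16 and -0.39. With KO replicate 2 left out 3 were again higher, beside 9.52% of all genes, and DESeq2 gave Xpo1 an adjusted p of 0.0251. DESeq2 called 0 genes of this list when KO replicate 1, KO replicate 3 or WT replicate 2 was left out. In these fits it called 3.77%, 1.27% and 2.56% of all genes higher, and 4.25%, 0.268% and 0.303% lower.

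Corepressor partners showed small differences. Of 10 tested, 1 was higher (Tbl1x) and 1 lower (Cbx5) at an unadjusted p under 0.05, near the shares of all genes (9.88% and 7.83%), 0 passed adjustment, and the median log2 fold change was 0.04. Hdac3, the enzyme that gives class IIa complexes their activity, was at 86.9, 81.7 and 105 CPM in KO and 83.4, 71.3 and 83.1 CPM in WT, with an edgeR log2 fold change of 0.20 (SE 0.16, edgeR adjusted p = 0.514). Cbx5, heterochromatin protein HP1 alpha, was at 363, 392.1 and 333 CPM in KO and 457, 672 and 444 CPM in WT (edgeR log2 fold change -0.53, edgeR adjusted p = 0.250). Tbl1x and Tbl1xr1, paired subunits of the NCoR complex, lay on opposite sides, with edgeR log2 fold changes of 0.44 and -0.36. Neither direction held any gene at an unadjusted p under 0.05 once KO replicate 2, KO replicate 3 or WT replicate 2 was left out. In these fits 9.52%, 5.92% and 7.08% of all genes were higher, and 6.02%, 2.84% and 3.47% lower.

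Among activators and partners of MEF2, 19 were tested, 2 were higher at an unadjusted p under 0.05 (9.88% of all genes were), 0 lower (7.83% of all genes) and 0 past adjustment, and the median log2 fold change was -0.02. The 2 were Mapk11, a p38 kinase, and Ppp3cc, a catalytic subunit of calcineurin, with edgeR log2 fold changes of 0.88 and 0.83 (edgeR adjusted p = 0.265 and 0.253). Both are low, at 4.77 to 16.8 CPM and 3.44 to 10.2 CPM over the 6 libraries. Ncoa2, a coactivator of MEF2C, had an edgeR log2 fold change of -0.52 and Carm1, an arginine methyltransferase that works with it, 0.47 (edgeR adjusted p = 0.287 and 0.286). Without KO replicate 2, DESeq2 called Ncoa2 lower (adjusted p = 0.0112). Without KO replicate 3 or WT replicate 2 the number higher at an unadjusted p under 0.05 was 0, where 5.92% or 7.08% of all genes were higher. Mef2b was not analysed here.

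**Figure D4:**
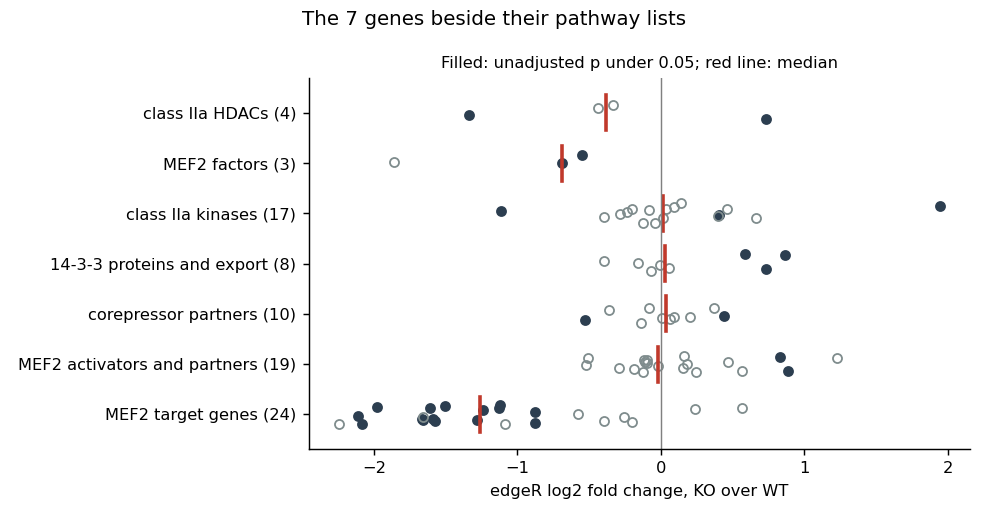
EdgeR log2 fold changes of KO over WT for the 7 genes and the 5 pathway lists, 1 point a gene, filled at an unadjusted p under 0.05, with a red line at the median and the number tested in brackets. The MEF2 target genes lie to the left, with a median of -1.26, and the other 4 lists are centred near 0.

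MEF2 target genes had lower values in KO as a list. The list was chosen with earlier results of these data known, so its counts beside all genes are a description without a test. Of 24, 22 had a log2 fold change below 0, against 50.8% of all tested genes. Their median was -1.26, against -0.01 over all genes. In edgeR 0 passed adjustment, and 15 were lower and 0 higher at an unadjusted p under 0.05, against 7.83% of all tested genes lower; DESeq2 called 10 lower, against 2.4% of all genes. Many of them encode sarcomere and metabolic proteins whose genes MYOD and myogenin also activate. A lower list was not particular to the targets. The 8 genes read as markers of differentiation stage, which share Ckm and Myog with the targets, were all below 0. Their median was -1.18, and DESeq2 called 4 of the 8 lower. The part of stage in the values of the targets was not tested. Des, the muscle intermediate filament desmin, was at 1370, 852 and 852 CPM in KO and 1768, 2055 and 1833 CPM in WT, with an edgeR log2 fold change of -0.88 (SE 0.24, edgeR adjusted p = 0.178). Lmod3, a thin filament protein, Hrc, a calcium-binding protein of the sarcoplasmic reticulum, and Klhl31 had edgeR log2 fold changes of -1.50, -1.66 and -1.12 (edgeR adjusted p = 0.195, 0.218 and 0.206). None of these 4, named for their small p, overlapped between the groups. Over the whole list 7 of 24 were lower without overlap, against 10.2% of all tested genes. Srpk3, a muscle kinase, was at 141.3, 60.7 and 57.0 CPM in KO and 119, 256 and 255 CPM in WT, overlapping through replicate 1 (edgeR log2 fold change -1.28, edgeR adjusted p = 0.217).

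The count of MEF2 targets moved strongly with single libraries, while the median did not change sign. At an unadjusted p under 0.05 edgeR had 2 lower when KO replicate 2 was left out, 5 when KO replicate 3 was, 4 for WT replicate 2 and 7 for WT replicate 3. Leaving out KO or WT replicate 1 gave 18 or 16. The share of all genes lower by that rule was 6.02%, 2.84%, 3.47% and 6.65% in the first 4 of these fits and 8.07% and 9.84% in the last 2. DESeq2 called 0 lower when KO replicate 2, KO replicate 3 or WT replicate 2 was left out and 3 for WT replicate 3, but 17 or 15 for KO or WT replicate 1. DESeq2 called 1.22%, 0.268% and 0.303% of all genes lower in the 3 fits with 0, 1.62% in that without WT replicate 3, and 4.25% and 5.29% in those without KO or WT replicate 1. The median log2 fold change ran from -1.95 to -0.99 in the edgeR fits. Of 18 target genes with a promoter window, 5 held the MEF2 consensus (Jun, Myoz2, Pgam2, Srpk3 and Xirp2). A gene can have several windows, so this count of genes cannot be set beside the 3.19% of all windows. Jun, an immediate early gene, was 1 of the 2 targets above 0, with an edgeR log2 fold change of 0.24, and Pgam2, muscle phosphoglycerate mutase, was at -1.59; these were named after their values were seen.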

How the data were processed

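Raw counts, with no scaling by the authors, were deposited for each gene and library. A second set of deposited columns held normalized counts, a signal equal to the raw count over a library's size factor, as the values show. Log2 fold changes with errors, a test score and p-values were deposited as the authors' own results. Per the submitters' processing notes the tools were TopHat2 2.0.8 with Bowtie2, featureCounts, DESeq2, Trimmomatic and FastQC, on GRCm38; whether counting used strand was not given in the sources used here.

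Of 21778 genes, filterByExpr kept 14835. After TMM scaling, KO and WT were compared with no covariate by the quasi-likelihood F test of edgeR 4.0.16 in R 4.3.3; standard errors came from F. Alternatives were DESeq2 1.42.0, voom in limma 3.58.1, other scalings and filters, a replicate block, a sex covariate and each library left out. The fits were tested on simulated data. Genes were named by rule: the 7 members, Hdac11, at most 5 per list, by smallest p, and 3 nearest profiles a member, of which a subset is printed; Mki67, Myh3, Ckm and markers give context. The members and lists were chosen with earlier results of these data known. Promoters and gene overlaps are RefSeq's (GRCm38.p6); exon lengths are GENCODE vM1's on NCBIM37 and may differ from the models counted. P-values set the difference between KO and WT against the spread between these cultures. The labels do not say whether a culture pooled animals, so what that spread stands for is not known.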

Additional observations from a re-analysis of the deposited data

How the results depend on the processing

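All 7 genes kept the sign of their log2 fold change in all 21 alternatives; 135 of their comparisons stayed on the same side of the threshold and 12 passed it. DESeq2 and the authors' deposited table each called 1 member higher and 1 lower. With DESeq2 and a library left out, a setting chosen after seeing the data, members called higher were 0 to 1 and lower 0 to 3. Over all genes, DESeq2 called 613 higher and 328 lower, and the authors' deposited table called 609 and 309. With KO replicate 1, 2 or 3 left out DESeq2 called 509, 590 or 175 higher and 573, 171 or 37 lower, and with WT replicate 1, 2 or 3 left out 799, 330 or 595 higher and 747, 39 or 222 lower. At an unadjusted p under 0.05, edgeR had 904 to 1627 genes higher and 434 to 1506 lower with a library left out. DESeq2 by that rule had 884 higher and 703 lower without KO replicate 3 and 647 lower without WT replicate 2. Scaling by library totals only gave 2019 higher and 700 lower, against 1465 and 1161 with TMM, and a median log2 fold change over all genes of 0.14. Members whose groups did not overlap on the lower side were 3 to 5 with a library left out, where 12.4% to 20.0% of all genes did the same, and 2 of 7 with library totals only, where 5.49% did. With sex as a covariate Hdac5 joined the members at an unadjusted p under 0.05 (edgeR adjusted p = 0.231), and the edgeR adjusted p of Hdac9 was 0.0648 in place of 0.193. The cause of these differences was not tested.

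Same-numbered KO and WT libraries had correlations of their deviations from the group means of -0.25 to 0.05. Differently numbered ones had -0.25 to 0.36. With 3 libraries in a group such correlations cannot decide whether the numbers pair the cultures. With the replicate block edgeR called 0 genes, and the members at an unadjusted p under 0.05 were 1 higher and 3 lower. That was as many as in the fit that ignores the numbers. By that rule 1392 of all genes were higher and 914 lower with the block, against 1465 and 1161 without it. No setting varied the depth; Hdac9 rested on the fewest counts of the 7 genes, 97 to 564 per library.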

Other observations

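Precursor rows of microRNAs tied to this circuit were present at low counts and were looked at after the values were seen. miR-206 and miR-1 repress Hdac4 in muscle, and their genes, with those of miR-133, are activated by MEF2 and MYOD. Mir133a-2 was at 3.68, 3.13 and 1.64 CPM in KO and 0.904, 14.1 and 11.5 CPM in WT, in the order of replicates 1, 2 and 3. WT replicates 2 and 3 stood above the other 4 libraries, as they did for Mef2c. Its edgeR log2 fold change was -1.64 (SE 0.84, edgeR adjusted p = 0.344). Mir206 was at 1.79, 2.15 and 0.791 CPM in KO and 1.38, 2.33 and 3.60 CPM in WT, with overlapping groups (edgeR log2 fold change -0.62, edgeR adjusted p = 0.550). Poly(A) libraries catch primary transcripts and not mature microRNAs, so these rows do not measure the microRNAs themselves.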
